A study of Mus musculus with 7 samples.

Results

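Mouse chromosome 15 carries a cluster of genes for small proteins of the Ly6/uPAR family, and 5 of them, Psca, Slurp1, Lynx1, Ly6a and Ly6c1, had lower mean RNA levels in fibroblasts with a deletion on chromosome 4 than in control fibroblasts. In Df/+Bl6 cells the levels were 28.4% of control for Psca, 52.6% for Lynx1, 41.4% for Ly6a and 35.1% for Ly6c1, and Slurp1 was near 0. The genes described are these 5 together with Ly6e and Ly6d of the same cluster, 7 of 21 family genes named for the stretch. Psca, Slurp1, Lynx1, Ly6a and Ly6c1 were chosen by their presence in the authors' tables of changed genes, and thus selected on the very means given here, so their differences are a description and were given no test. The authors' list holds 1346 genes of 15531 tested (8.67%), of which 550 (3.54% of those tested) were lower and 796 (5.13%) higher in Df/+Bl6.

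Ly6/uPAR proteins share a compact fold held together by disulfide bonds, with loops that reach out like fingers. Most are tied to the outer cell membrane by a glycosylphosphatidylinositol (GPI) lipid, and a few are secreted. Lynx1 and the secreted Slurp1 bind nicotinic acetylcholine receptors, Psca was first known as prostate stem cell antigen, and Ly6a (Sca-1) and Ly6c1 are surface markers used to sort stem cells, mesenchymal progenitors and leukocytes, several of them induced by interferon.

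The cells were primary mouse embryonic fibroblasts (MEFs) from embryos at embryonic day 13.5, used at passage 4. In the 4 Df/+Bl6 lines the chromosome 4 inherited from the 129S5/SvEvBrd embryonic stem cells lacked 4.3 Mb of band 4E2, and the homologue from C57BL/6J was intact. The 3 +129/+Bl6 lines were F1 hybrids of both strains with 2 complete chromosomes 4, so in either genotype every chromosome 15 pair came from 1 strain each. The deletion came from a single engineered Df/Dp embryonic stem cell line, passed on by chimeras mated to C57BL/6J, and no litter or batch was given for the lines. The values used are the authors' means of normalized counts over the lines of a genotype. No value per line, no SD and no depth is therefore given, and no difference was set here against the spread between lines. A gene is called listed where the authors' own DESeq test placed it past a false discovery rate of 0.05. The number of unlisted genes at an unadjusted threshold is not given here.

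The stretch from Psca to Gpihbp1 covers 883 kb, chr15:74714839-75598213 in GRCm38, the build the authors used. Psca (chr15:74714839-74717065), Slurp1 (chr15:74726644-74728023) and Lynx1 (chr15:74747856-74752979) lie within 38.1 kb of one another. Ly6d (chr15:74762056-74763567) follows, and 202 kb separate the end of Lynx1 from the start of Ly6e (chr15:74955025-74959904). Ly6a (chr15:74994877-74998031) and Ly6c1 (chr15:75044018-75048920) form another close group spanning 54.0 kb.

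The coding sequences show how alike these genes are. The authors kept only pairs with a single best position and no mismatch. Read placement thus depended on stretches shared without mismatch, counted below over whole transcripts. The first 99 coding bases of Ly6a and its nearest relatives are printed here 5′ to 3′, with capitals at each base that differs from Ly6a at the same position.
Ly6a: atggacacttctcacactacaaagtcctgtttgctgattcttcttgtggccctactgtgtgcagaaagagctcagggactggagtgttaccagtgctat
Ly6i: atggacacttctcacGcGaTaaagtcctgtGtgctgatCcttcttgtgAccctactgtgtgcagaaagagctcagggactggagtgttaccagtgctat
Ly6c1: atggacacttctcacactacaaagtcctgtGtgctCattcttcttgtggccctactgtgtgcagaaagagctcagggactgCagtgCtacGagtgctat
Ly6c2: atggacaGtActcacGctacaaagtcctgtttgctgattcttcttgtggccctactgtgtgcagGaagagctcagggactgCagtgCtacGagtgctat
Ly6f: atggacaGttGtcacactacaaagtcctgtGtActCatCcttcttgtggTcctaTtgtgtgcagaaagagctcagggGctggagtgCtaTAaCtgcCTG
Ly6i differs from Ly6a at 6 of these bases, Ly6c1 at 5, Ly6c2 at 7 and Ly6f at 16. The same stretch of Ly6e, Lynx1, Psca and Slurp1 is given for contrast, without capitals because these genes start differently.
Ly6e: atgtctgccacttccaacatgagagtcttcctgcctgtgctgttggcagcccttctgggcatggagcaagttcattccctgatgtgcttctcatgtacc
Lynx1: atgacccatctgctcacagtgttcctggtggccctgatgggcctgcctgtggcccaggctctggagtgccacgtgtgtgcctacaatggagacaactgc
Psca: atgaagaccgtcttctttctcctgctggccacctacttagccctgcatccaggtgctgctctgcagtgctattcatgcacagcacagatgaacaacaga
Slurp1: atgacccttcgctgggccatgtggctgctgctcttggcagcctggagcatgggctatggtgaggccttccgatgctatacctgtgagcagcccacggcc

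Over the whole coding sequence, the 10 pairs among Ly6a, Ly6i, Ly6c1, Ly6c2 and Ly6f were identical at 76.5% to 97.7% of aligned positions, with a median of 81.9%. Among the 5 listed genes, Ly6a and Ly6c1 were the closest pair at 82.0%, and the other 9 pairs lay between 48.7% and 53.7%. Ly6e, at 40.6% to 53.2% with the 18 other family genes compared, was about as far from Ly6a as Lynx1 and Psca were.

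**Figure D1:**
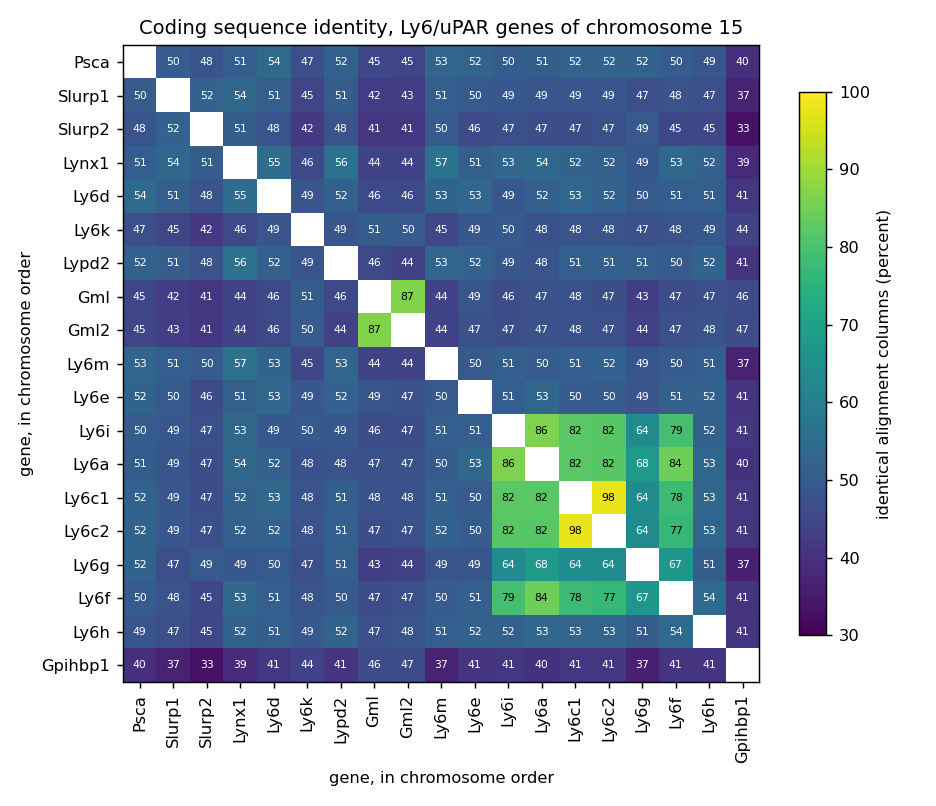
Percent identity of aligned coding bases for every pair of 19 Ly6/uPAR genes of chromosome 15. Both axes are in chromosome order apart from Lypd2, which belongs between Slurp1 and Slurp2. A block of close relatives holds Ly6i, Ly6a, Ly6c1, Ly6c2 and Ly6f (76.5% to 97.7%), with Gml and Gml2 as a separate close pair, while Psca, Slurp1, Lynx1, Ly6d and Ly6e have no close relative.

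Ly6c1 and Ly6c2 were the pair most at risk, with 97.7% identity and 9 differences over 396 coding bases. Counted from the first coding base, with the Ly6c1 base first, these are C8G, T10A, A16G, G31T, C36G, A65G, G254A, T327C and G376A. Their longest identical run is 188 bases, coding bases 66 to 253 of Ly6c1, and it is printed because a 100-base read that falls inside it cannot be placed on either gene.
Ly6c1 and Ly6c2, shared run: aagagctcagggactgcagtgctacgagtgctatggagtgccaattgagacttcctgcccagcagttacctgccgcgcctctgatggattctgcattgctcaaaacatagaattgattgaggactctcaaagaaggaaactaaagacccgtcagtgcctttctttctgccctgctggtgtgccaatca
Of the 741 windows of 100 bases in the Ly6c1 transcript, 114 (15.4%) also occur in Ly6c2 without mismatch. Some of these windows lie outside the printed run. A pair could still have been placed where either mate reaches a base that differs. The transcripts of Psca, Slurp1, Lynx1, Ly6d, Ly6e, Ly6i and Ly6a were compared with those of 22754 genes that have a protein-coding transcript in the annotation used here. They have 0 such windows in common with any other of these genes. Pseudogenes and non-coding genes were not compared. Ly6c1 was thus counted on pairs that reach a base where it differs from Ly6c2. The part that shared sequence, or strain variants missing from the 129S5 transcriptome, played in the Ly6c1 value was not tested.

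Among the secreted and nicotinic receptor-binding proteins, Slurp1, a secreted protein of keratinocytes and other epithelia, had a mean of 0.665 normalized counts in Df/+Bl6 and 32.7 in +129/+Bl6. Its log2 ratio of Df/+Bl6 over +129/+Bl6 was -5.62, the largest of the 550 falls, but its mean over all lines, 14.4, was the lowest of the 1346 listed genes. With under 1 normalized count on average in Df/+Bl6, the size of the ratio rests on very few reads. It was -4.34 after 1 count was added to both means and -2.0 after 10 were added. A control mean of this size could come from all 3 lines or from 1 of them, and the deposited means cannot show which.

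Lynx1, the GPI-anchored modulator of nicotinic receptors best known from neurons, was far more abundant, at 2833 normalized counts in Df/+Bl6 and 5384 in +129/+Bl6. Its log2 ratio of -0.93 was the smallest of the 5. It was also the 1 family gene listed for either allele alone. Reads carrying the 129S5 base averaged 782 in Df/+Bl6 and 1389 in +129/+Bl6 (log2 -0.83), and reads carrying the C57BL/6J base averaged 1639 and 3100 (log2 -0.92). Df/+Bl6 thus held 56.3% of the control mean on the 129S5 allele and 52.9% on the C57BL/6J allele. The fall was present on both parental chromosomes 15, and whether the ratios differ between the alleles was not tested. The tables of the alleles were scaled separately, so their levels are not compared. For scale, the 129S5 table lists 123 genes that were lower in Df/+Bl6, 0.792% of the genes tested over both alleles. The C57BL/6J table lists 145, or 0.934%. Which genes were tested for each allele is not given. The absence of Ly6a and Ly6c1 from both lists thus does not show that either allele was equal between genotypes.

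Psca, a GPI-anchored protein of epithelia, was the other gene of low level. Its mean was 50.2 normalized counts in Df/+Bl6 and 177 in +129/+Bl6, a log2 ratio of -1.82 that ranked 37th in size among the 550 falls.

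Both surface markers of the second group stood at high levels. Ly6a, the Sca-1 antigen of haematopoietic stem cells and mesenchymal progenitors, averaged 3820 normalized counts in Df/+Bl6 and 9226 in +129/+Bl6 (log2 -1.27). Ly6c1, one of a pair of near-identical genes recognized by Ly6C antibodies on monocytes and endothelium, averaged 2817 and 8020 (log2 -1.51). Control cells thus held 2.42 times the Ly6a mean and 2.85 times the Ly6c1 mean of Df/+Bl6 cells. In RNA from whole cultures, fewer cells that express a gene and less RNA per cell cannot be told apart.

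**Figure D2:**
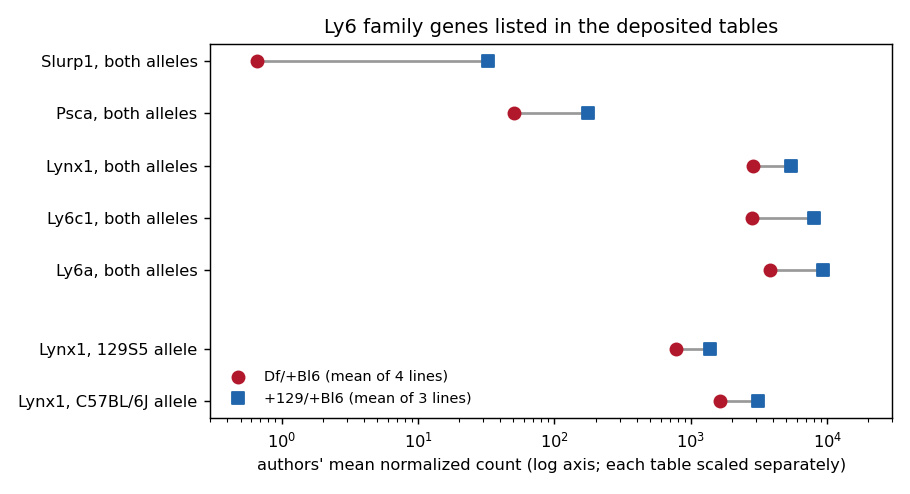
The authors' mean normalized count (log axis) of the 5 listed genes in Df/+Bl6 (red circles, mean of 4 lines) and +129/+Bl6 (blue squares, mean of 3 lines), with Lynx1 also for each allele alone. No error bars can be drawn from means. Every red circle lies left of its blue square, from 0.665 against 32.7 for Slurp1 to 3820 against 9226 for Ly6a.

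Per kilobase of the longest transcript, the order of the control means was Ly6a at 11265, Ly6c1 at 9548, Lynx1 at 1362, Psca at 207 and Slurp1 at 62.3. In Df/+Bl6 the order of the per-kilobase means was the same, at 4664, 3353, 717, 58.7 and 1.27. Whether neighbours in this order differ beyond the spread between lines cannot be said, as only means were used. The median log2 ratio of the 5 genes was -1.51, and the median over all 550 listed falls was -0.81. Both numbers hold only genes that passed the authors' threshold.

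**Figure D3:**
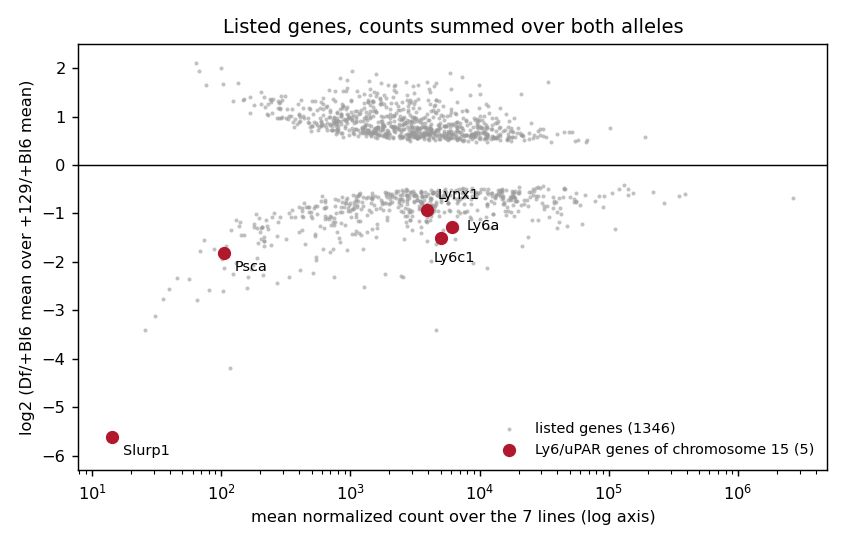
Log2 ratio of Df/+Bl6 over +129/+Bl6 against the mean normalized count over the 7 lines (log axis) for the 1346 listed genes (grey), with the 5 Ly6/uPAR genes in red. Slurp1 stands at the lowest mean, 14.4, with the lowest ratio, -5.62, and Lynx1, Ly6a and Ly6c1 lie in the middle of the range of means at ratios of -0.93 to -1.51.

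Ly6e, a GPI-anchored protein known for its effects on virus entry, was tested and not listed, and Ly6d, a marker of B cell progenitors and stratified epithelia, was not among the tested genes. Neither has a group mean in the tables used, so how near Ly6e came to the authors' threshold is unknown. The absence of Ly6e from the list does not show that its level was equal in both genotypes. Of the 14 further family genes of the stretch, 1, Ly6i, was tested, and it was not listed. Slurp2, Ly6k, Lypd2, Gml, Gml2, Ly6m, Ly6c2, Ly6g, Ly6f, Ly6h and Gpihbp1 were not in the tested list, and Ly6g2 and Ly6l had no identifier in the annotation used. The authors left out genes with under 10 reads to each allele, but why each of these genes is absent is not given. Of the 7 family genes tested, 5 were listed, all lower in Df/+Bl6, against 8.67% over all genes, but membership among the 5 is what the choice was made on.

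The genes around the cluster were considered because they were not used for the choice. Them6 was the only other tested gene inside the stretch, and it was not listed. Within 0.5 Mb on either side 1 of 22 tested genes was listed (4.55%), and within 1 Mb 5 of 44 (11.4%), beside 8.67% over all genes tested. Of these 5, Ptp4a3, a protein tyrosine phosphatase, had means of 2061 in Df/+Bl6 and 4047 in +129/+Bl6 (log2 -0.97). Grina had 13544 and 24168 (log2 -0.84), and Mroh1 had 14154 and 27191 (log2 -0.94). Fam83h, known for its role in enamel, was the 1 listed gene within 0.5 Mb, at 1724 and 2611 (log2 -0.60), and Gm15387 was the 1 that was higher, at 1865 and 1263 (log2 0.56). The ratios of the 4 lower neighbours were closer to 0 than those of Psca, Slurp1, Ly6a and Ly6c1, but those of Ptp4a3 and Mroh1 lay slightly below that of Lynx1 (-0.93).

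**Figure D4:**
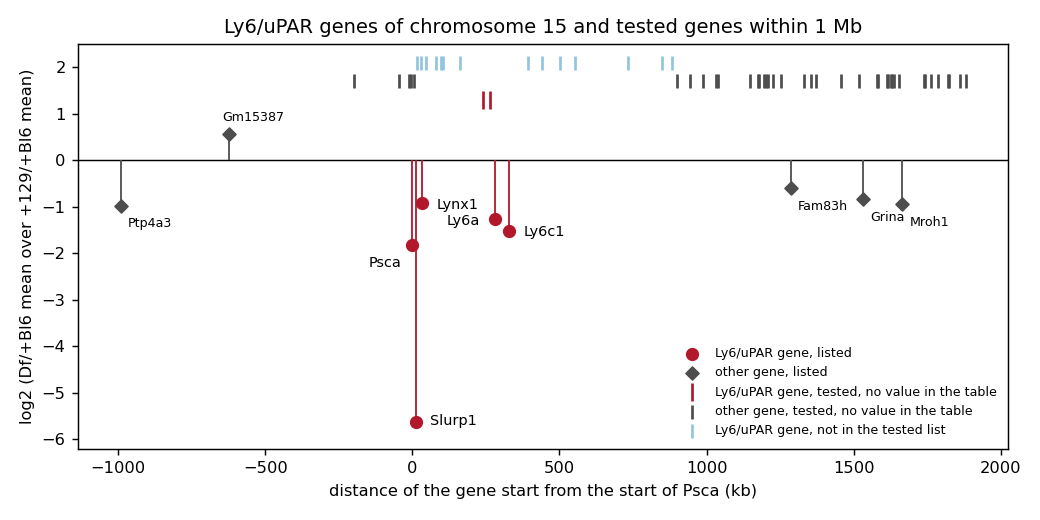
Log2 ratio of Df/+Bl6 over +129/+Bl6 against distance in kb from the start of Psca, for listed Ly6/uPAR genes (red circles) and other listed genes within 1 Mb of the cluster (grey diamonds). Ticks at the top, whose height carries no value, mark genes without a mean in the tables. The 5 red points lie below 0 in 2 groups, Psca, Slurp1 and Lynx1 near 0 kb and Ly6a with Ly6c1 further right, and no listed gene lies between the groups.

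Genes linked to the family by function were counted too, beside 8.67% listed over all genes. None of 6 tested Ly6/uPAR genes on other chromosomes was listed, among them Plaur, the urokinase receptor, and Cd59a, an inhibitor of complement. None of 4 tested nicotinic receptor subunits, Chrna1, Chrna7, Chrnb1 and Chrnb2, was listed. Of 24 tested genes that build or trim the GPI anchor 1 was listed, Pgap1, an inositol deacylase, with a higher mean in Df/+Bl6 (1246 against 736, log2 0.76). Of 33 tested genes from a chosen list of interferon-induced genes 1 was listed, the peptide transporter Tap1, at 1443 against 2468 (log2 -0.77). Interferon-induced genes outside that list were not counted in either direction. Tgtp1, which was not on it, was listed at 118 against 310 (log2 -1.39). These lists held 0% to 4.17% listed genes. The counts were not tested, and lists with 0 or 1 listed gene are too small to set against the share over all genes.

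Other genes of mesenchymal stem or progenitor cells, for which Ly6a serves as a marker, gave 2 listed genes of 19 tested. Eng (endoglin, a co-receptor for TGF-beta) averaged 3327 in Df/+Bl6 and 6018 in +129/+Bl6 (log2 -0.85), and Nt5e (CD73) averaged 1387 and 2386 (log2 -0.78). Both were lower, as Ly6a was, and 2 of 19 is 10.5%, near the share over all genes.

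Markers of the cell types in which Ly6 proteins are best known were considered next. All 8 fibroblast markers were among the tested genes, and 1, Fn1, was listed (log2 -0.69). None of 6 tested epithelial markers, 7 macrophage markers, 6 endothelial markers and 3 neuronal markers was listed. Epithelial genes outside the chosen list were not counted in either direction. Some of them were listed as lower in Df/+Bl6, such as Krt75 (log2 -2.77) and Itgb4 (log2 -1.80). With 8.67% listed over all genes, lists this short are too small to read anything from 0 or 1 listed gene. Of the lymphoid markers, Thy1, which fibroblasts express too, was tested and not listed, whereas Cd3e, Cd4, Cd8a and Cd79a were not in the tested list. Since unlisted genes have no mean here, the level of these cell types in either genotype is not given and their part in the Ly6 values was not tested.

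A promoter sequence was given for 1 of the 7 members, Ly6c1. The 250 bases before the more upstream of its given starts (chr15:75048838-75049087) partly overlap the gene span above, which ends at 75048920. They hold 1 TATAAA, at position -143 from that start. They hold 0 matches on either strand to GAAA, any 2 bases and GAAA, the core of the interferon-stimulated response element, or to TTCNNNGAA, a STAT site. The 250 bases before its more downstream start (chr15:75048664-75048913) lie wholly inside the gene span and hold 0 matches to any of them. These letters occur in 12.4%, 2.98% and 7.02% of 32851 promoter windows of the same length. A missing match says only that the letters are not in the window searched.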

How the data were processed

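Polyadenylated RNA of the 7 lines was sequenced as stranded pairs of 100-base reads. The authors aligned reads with GSNAP, without mismatch, to the longest transcript of each gene (Ensembl, GRCm38) in a C57BL/6J and a 129S5/SvEvBrd version, kept pairs with a single best location on 1 gene, and excluded genes with fewer than 10 reads per allele across genotypes. The versions of DESeq and GSNAP that the authors used are not given in the sources used here.

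The deposited signal values used here are group means of counts that the authors normalized with DESeq size factors, in 3 tables (both alleles, 129S5 allele, C57BL/6J allele) of genes past an FDR of 0.05, each scaled separately. These tables also hold the authors' fold changes, p-values and adjusted p-values, which were not used. Ratios were turned to Df/+Bl6 over +129/+Bl6. A further file of normalized counts has 9 columns of values without names for 7 lines. These were not used, so unlisted genes have no level, and its gene identifiers served as the list of tested genes. The allele tables hold 257 and 326 genes, and 256 and 325 of them are in that list. Depth per line is therefore unknown, and the planned protein comparison was replaced by coding sequences.

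The members and gene lists were chosen with earlier results of these data known. Named genes were the 7 members, every family gene of the stretch, the listed genes among neighbours and in each list, and, for Ly6a and Ly6c1, the 3 listed genes with the nearest log2 ratio. Some genes that these rules name are not reported here. Positions and promoters come from RefSeq GRCm38, transcripts from GENCODE, which supplied a symbol for 14963 of the 15531 tested identifiers. Coding sequences were aligned globally (match 1, mismatch -1, gap open -3, extension -1) with Biopython 1.88, and sequence steps were tested on simulated data. Python 3.11.15, pandas 2.3.3 and matplotlib 3.10.9 were used.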

Additional observations from a re-analysis of the deposited data

How the results depend on the processing

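The log2 ratios of Psca, Lynx1, Ly6a and Ly6c1 moved by less than 1.5-fold when 1 or 10 counts were added to both means, and that of Slurp1 went from -5.62 to -4.34 and -2.0. Centring on the median log2 ratio of all listed genes (0.61) moved the median of the 5 genes from -1.51 to -2.12, with the same direction for each. With a mean of at least 100 required, 4 of the 5 remained, without Slurp1. Listed neighbours went from 5 within 1 Mb to 1 within 0.5 Mb and 0 within the stretch itself. With windows of 50 bases, the shared part rose from 15.4% to 31.9% in Ly6c1 and from 0 to 4.42% in Ly6a. No paired analysis was possible because the value columns carry no line names and nothing given pairs lines of the groups. The missing line names are also why leaving out each line in turn was not run.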

Other observations

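Among the listed genes described here, those nearest to Ly6a in log2 ratio (-1.27) were Mlph (128 in Df/+Bl6 and 310.5 in +129/+Bl6, log2 -1.27) and Epn3 (111 and 268, log2 -1.27). Those nearest to Ly6c1 (-1.51) were Per3, Olfml2a and Sox10. The clock gene Per3 (461 and 1300.3, log2 -1.50) lies within the deleted segment of chromosome 4. Its mean in Df/+Bl6 thus comes from the C57BL/6J homologue only. Olfml2a had 177 and 508 (log2 -1.52). Sox10, a transcription factor of neural crest and glia, had 113 and 326 (log2 -1.53). Likeness was the difference in log2 ratio in the table of both alleles alone, over group means of 7 lines, so it sorts genes by the size of 1 number.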
